A study of Mus musculus with 6 samples.

Results

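The expression of 6 genes for secreted proteins that build, bind or cut the extracellular matrix was followed on arrays of 3 EL4 clones. EL4 is a T lymphoma line from the mouse. They were Wisp1, Hapln1 and Spp1, which encode matrix or matrix-associated proteins, Timp2, an inhibitor of matrix proteases, and the proteases Adamts1 and Ctsl. The members were the probe sets that carry 1 of these 6 gene names in the authors' deposited lists of differing probe sets. This gave 12 probe sets of 6 genes, among 45101 probe sets in the value table and 2451 with a name in either list. All 12 stood in the list that compared V7 with WT2, whose ratios start at 2, and 0 stood in the list that compared C5 with V7. The V7 and WT2 arrays therefore chose the members, and their difference is given as a description, without a test. Probe sets without a name in the lists were not used here.

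The clones were WT2, which is labelled PMA-sensitive, non-adherent to plastic and non-metastatic, V7, which is labelled PMA-resistant, adherent and metastatic, and C5, which is labelled PMA-resistant, adherent and highly metastatic. PMA is a phorbol ester that mimics diacylglycerol. All 3 lines shared EL4 as parent and an overnight culture in serum-free medium, and no other treatment was given. Each line gave 2 aliquots of cells, so each phenotype was represented by 1 clone and 2 arrays, and this number limits the precision of every value. EL4 is held to be of T cell origin, and the T cell receptor subunit Cd3e had a signal of 2008 ± 199.6 in WT2, 982 ± 92.6 in V7 and 1031 ± 184 in C5. Other T cell markers differed widely between the lines and in both directions. Cd2 had 841 ± 65.3 in WT2, 4.08 ± 4.49 in V7 and 3.86 ± 4.14 in C5, and the brightest probe set of the receptor chain Cd247 had 596 ± 31.0, 5.38 ± 5.48 and 1.16 ± 0.191. The T cell receptor adaptor Trat1 had 3.78 ± 3.63, 1439 ± 43.6 and 1407 ± 161. Values with ± are means and SDs over the 2 aliquots (n = 2). The median signal per array was 15.8 to 21.5. Aliquots of the same line correlated across probe sets at r = 0.956 to 0.974, V7 with C5 arrays at 0.966 to 0.968, and WT2 with the other arrays at 0.876 to 0.892. The ratio of 3' to 5' Gapdh control signal, which rises when RNA is degraded or copied incompletely, was 1.51 and 1.77 in WT2, 0.960 and 0.887 in V7, and 1.15 and 0.829 in C5. Its part in the differences from WT2 was not tested. The same ratio for Actb overlapped between the lines, at 1.83 and 2.04 in WT2, 2.50 and 2.04 in V7, and 2.91 and 1.87 in C5.

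The extracellular matrix is a mesh of collagens, laminins, proteoglycans and hyaluronan, to which cells attach through receptors such as integrins and CD44. Matricellular proteins sit in this mesh and change how cells respond to it, without being structural parts. Metalloproteases and lysosomal cathepsins cut matrix proteins, and tissue inhibitors of metalloproteases hold the metalloproteases back. Lymphoid cells make little matrix of their own but meet it when they leave the blood and enter a tissue.

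Wisp1 and Hapln1 had signals of at most 25.9 on the WT2 arrays and of at least 164 on the V7 and C5 arrays. The probe sets of Timp2, Adamts1 and Ctsl were measured in every line and were 2.39-fold to 3.03-fold brighter in V7 than in WT2. Spp1 ran the other way and was brightest in WT2. Between C5 and V7 none of the 12 probe sets was called different, beside only 0.0999% of all probe sets tested. Adamts1 and Spp1 had the largest log2 differences of the members.

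**Figure D1:**
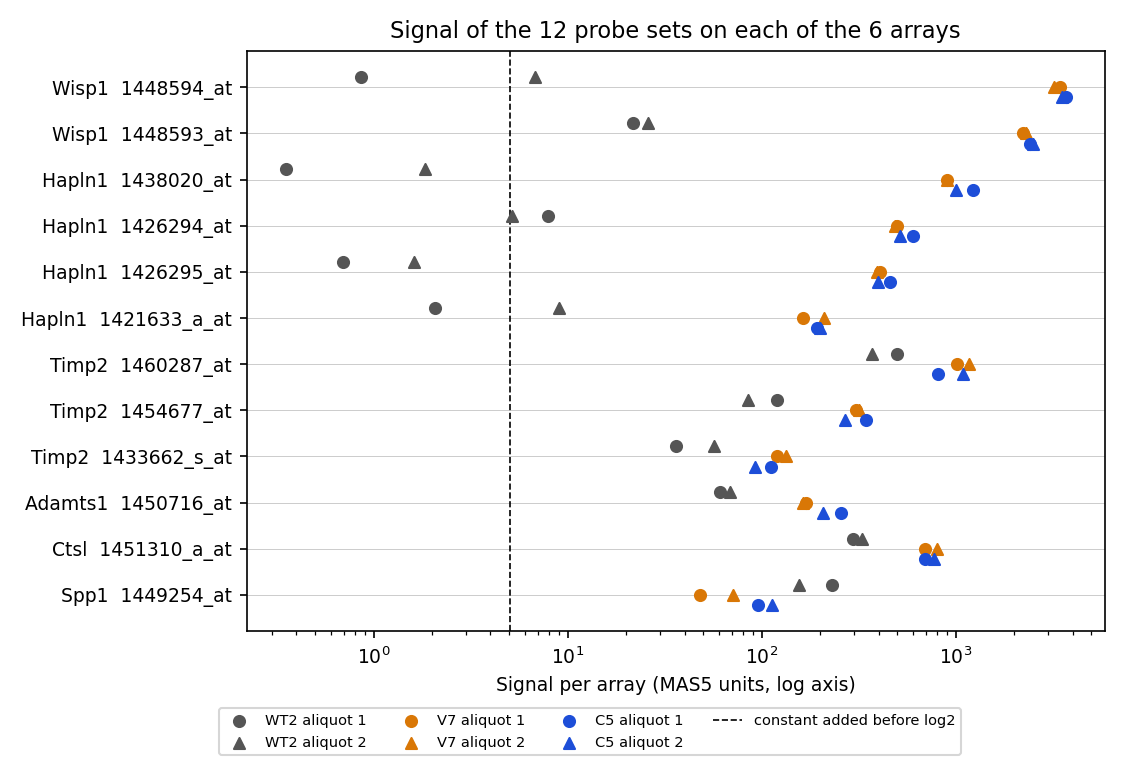
MAS5 signal (log axis) of each of the 12 probe sets on each of the 6 arrays. WT2 is grey, V7 orange and C5 blue, circles are aliquot 1 and triangles aliquot 2, and the dashed line marks the constant of 5.03 that was added before taking log2. For Wisp1 and Hapln1 the WT2 signals lie between 0.352 and 25.9 while all V7 and C5 signals lie between 164 and 3685. For Spp1 both WT2 points lie to the right of all others.

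Wisp1, now also called Ccn4, encodes a matricellular protein of the CCN family that was first described as a target of Wnt signalling. Its probe set 1448594_at had signals of 0.864 and 6.75 on the WT2 arrays, 3447 and 3194 on the V7 arrays, and 3685 and 3515 on the C5 arrays. All V7 and C5 arrays were far above both WT2 arrays, and the C5 arrays lay just above the V7 arrays. The second probe set, 1448593_at, had signals of 21.7 and 25.9 in WT2, 2209 and 2311 in V7, and 2403 and 2502 in C5. The same order of the lines was seen there, with closer WT2 aliquots. On the scale of log2(signal + 5.03), where the added constant is the 25th percentile of all signals, V7 exceeded WT2 by 8.64 (SE 0.25) for 1448594_at and by 6.30 (SE 0.14) for 1448593_at. C5 exceeded WT2 by 8.76 and 6.42, and this comparison shares the WT2 arrays with the former. In the authors' deposited table the V7 to WT2 ratios were 372 and 121.86, and the first of these ranked 3 among its 2420 probe sets.

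C5 signals of Wisp1 were 1.08-fold (1448594_at) and 1.09-fold (1448593_at) those of V7, with no overlap between the arrays of the lines. The log2 difference was 0.12 for each, with 95% intervals of -0.43 to 0.66 and -0.19 to 0.42 (limma, not adjusted). Neither was called (Benjamini-Hochberg adjusted p = 0.987 and 0.965), and for both probe sets the interval excluded a 2-fold difference between C5 and V7 in either direction.

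Hapln1 encodes a link protein that holds proteoglycans such as aggrecan or versican on chains of hyaluronan. It had 4 probe sets, and its brightest, 1438020_at, had signals of 0.352 and 1.85 in WT2, 905 and 906 in V7, and 1223 and 1007 in C5. The lines did not overlap, and C5 was the highest on both arrays. Probe set 1426294_at had signals of 7.91 and 5.18 in WT2, 495 and 489 in V7, and 603 and 513 in C5, in the same order. Probe set 1426295_at had 0.696 and 1.62 in WT2, 406 and 394 in V7, and 455 and 398 in C5. Probe set 1421633_a_at, whose suffix marks probes that match several transcripts of a gene, had 2.07 and 9.05 in WT2, 164 and 209 in V7, and 193 and 199 in C5. In these last 2 probe sets the C5 and V7 arrays overlapped. The log2 difference of V7 from WT2 was 7.22 (SE 0.19) for 1438020_at, 5.43 for 1426294_at, 6.04 for 1426295_at and 4.25 (SE 0.31) for 1421633_a_at. The corresponding C5 differences from WT2 were 7.52, 5.61, 6.13 and 4.33. All 4 probe sets ordered WT2 below the other lines.

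C5 differed from V7 for Hapln1 by 0.29 in 1438020_at (95% interval -0.13 to 0.71, adjusted p = 0.894) and by 0.18 in 1426294_at (-0.26 to 0.61, adjusted p = 0.959), by limma. For 1426295_at the value was 0.09 and for 1421633_a_at 0.08, with adjusted p = 0.989 and 0.993. None was called, and the widest interval of the 4, that of 1421633_a_at, ran from -0.60 to 0.76.

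Hapln1 is the member with the widest change whose promoter was found, so its start region is shown from the RefSeq annotation of the GRCm38.p6 build, at chr13:89540386-89540685 on the plus strand, from 250 bases before the start to 50 after it. Capitals mark the match to TGTGGT, a core of the site bound by RUNX factors, which are regulators of T cell genes.
Hapln1: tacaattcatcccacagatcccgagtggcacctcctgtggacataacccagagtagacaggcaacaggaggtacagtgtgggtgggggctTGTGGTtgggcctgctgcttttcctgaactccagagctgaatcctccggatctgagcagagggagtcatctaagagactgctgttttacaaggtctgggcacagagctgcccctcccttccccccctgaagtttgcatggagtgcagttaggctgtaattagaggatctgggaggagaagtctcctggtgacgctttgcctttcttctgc
The match begins 160 bases before the start. The search covered 5 motifs on both strands: TGANTCA (AP-1, the phorbol ester response element), TGACGTCA (CRE), CACGTG (E-box), CTTTGAT (TCF/LEF, used in Wnt signalling) and TGTGGT (RUNX). Of 32851 promoter windows of the same 300 bases, 7.81% held the AP-1 letters, 1.79% the CRE, 7.15% the E-box, 3.73% the TCF/LEF and 16.8% the RUNX letters. Promoters were found for 5 of the 6 genes, in 6 windows because Spp1 had 2, and Wisp1 had none in the table used. None of the 6 windows held the AP-1, CRE or TCF/LEF letters, the windows of Timp2, Adamts1 and the second Spp1 start held none of the 5 motifs, and no matches overlapped each other.

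The very low WT2 signals make the size of the Wisp1 and Hapln1 differences depend on the added constant. One WT2 array of 1448594_at, both WT2 arrays of 1438020_at and 1426295_at, and one of 1421633_a_at were below the constant of 5.03. With a constant of 1, the V7 to WT2 difference of Wisp1 was 9.77 for 1448594_at and 6.52 for 1448593_at, and with the median signal of 18.1 it was 7.27 and 5.77. For Hapln1 1438020_at it was 8.85 with the constant of 1 and 5.59 with the median signal. The values for Hapln1 1426295_at were 7.57 and 4.44, and those for 1421633_a_at 5.07 and 3.12. For Timp2, Adamts1, Ctsl and Spp1 the largest shift was that of Timp2 1433662_s_at, from 1.46 to 1.18. The table of values holds no detection calls, so whether WT2 expressed Wisp1 or Hapln1 at all was not determined. In bulk RNA, fewer cells that express a gene and less of its RNA per cell cannot be told apart.

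**Figure D2:**
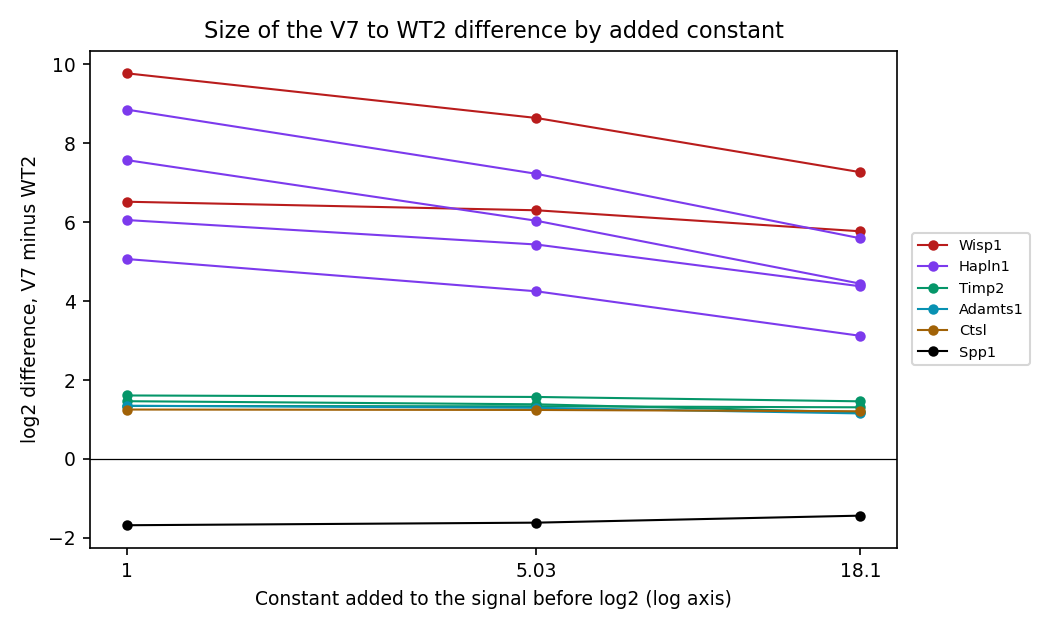
The log2 difference of V7 from WT2 (vertical axis) for each of the 12 probe sets when 1, 5.03 or 18.1 is added to the signal (horizontal log axis), 1 line per probe set, coloured by gene. The Wisp1 and Hapln1 lines fall with a larger constant, from 9.77 to 7.27 for Wisp1 1448594_at, while those of Timp2, Adamts1, Ctsl and Spp1 are nearly flat.

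Timp2 encodes a secreted inhibitor of matrix metalloproteases that also takes part in the activation of Mmp2 at the cell surface. Its probe set 1460287_at had signals of 500.3 and 371 in WT2, 1020.0 and 1174 in V7, and 814 and 1083 in C5. Both WT2 arrays were below all others, and the V7 and C5 arrays overlapped. Probe set 1454677_at had 120.0 and 85.4 in WT2, 307 and 315 in V7, and 345 and 268 in C5, again with overlap of V7 and C5 only. Probe set 1433662_s_at, whose suffix marks probes that may be shared with other genes, had 36.0 and 56.5 in WT2, 119 and 133 in V7, and 112 and 92.3 in C5. There the C5 arrays lay between WT2 and V7 with no overlap. The log2 difference of V7 from WT2 was 1.34 (SE 0.18), 1.57 (SE 0.20) and 1.39 (SE 0.25) in this order, and the authors' deposited table gave ratios of 2.49, 2.85 and 2.16. The C5 difference from WT2 was 1.12, 1.54 and 1.09. It fell below 2-fold for 1460287_at without the second WT2 or the second C5 aliquot (0.90 and 0.91). It also did so for 1433662_s_at without the first WT2 or the first C5 aliquot (0.79 and 0.95). C5 minus V7 was -0.22 (95% interval -0.61 to 0.17), -0.03 (-0.48 to 0.41) and -0.30 (-0.84 to 0.25), with limma adjusted p-values of 0.929, 0.995 and 0.930.

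Adamts1 encodes a secreted metalloprotease that cuts aggrecan and versican, the proteoglycans that Hapln1 links to hyaluronan. Its single probe set, 1450716_at, had signals of 60.6 and 68.5 in WT2, 169 and 163 in V7, and 257 and 207 in C5. The 3 lines were separated without overlap, in the order WT2, V7, C5. V7 exceeded WT2 by 1.30 (SE 0.19) on the log2 scale and C5 exceeded WT2 by 1.76. The authors' deposited table gave 3.16 as the V7 to WT2 ratio. C5 was 1.40-fold as bright as V7, a log2 difference of 0.46 with an unadjusted 95% interval of 0.04 to 0.89. This did not pass after adjustment over all probe sets (limma adjusted p = 0.707), and it ranged from 0.31 to 0.62 when each array was left out in turn.

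Ctsl encodes cathepsin L, a cysteine protease of lysosomes that can also be secreted and cut collagen and other matrix proteins. Probe set 1451310_a_at had signals of 295 and 329.8 in WT2, 693 and 801 in V7, and 691 and 775 in C5. Both WT2 arrays were low, and V7 and C5 overlapped. V7 exceeded WT2 by 1.24 (SE 0.14) and C5 by 1.22, and the ratio in the authors' deposited table was 2.19. C5 minus V7 was -0.03 with a 95% interval of -0.34 to 0.29 (limma adjusted p = 0.995), among the narrowest intervals of the 12. The start region of Ctsl is shown because it was the only member window with the E-box letters CACGTG, which are in capitals. The letters begin 236 bases before the start, at chr13:64370471-64370770 on the minus strand (GRCm38.p6, RefSeq).
Ctsl: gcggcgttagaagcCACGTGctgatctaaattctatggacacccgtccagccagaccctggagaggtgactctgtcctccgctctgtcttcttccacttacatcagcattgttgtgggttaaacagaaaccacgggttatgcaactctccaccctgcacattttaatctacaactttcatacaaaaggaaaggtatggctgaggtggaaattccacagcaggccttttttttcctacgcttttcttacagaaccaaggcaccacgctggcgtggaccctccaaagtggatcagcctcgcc

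Spp1 encodes osteopontin, a secreted phosphoprotein that binds integrins and CD44 and that activated T cells produce. It was the only member that was lower in V7 than in WT2. Probe set 1449254_at had signals of 231 and 155 in WT2, 47.8 and 71.3 in V7, and 95.7 and 113 in C5. The lines did not overlap, with C5 between V7 and WT2. The log2 difference from WT2 was -1.61 (SE 0.26) for V7 and -0.83 (SE 0.26) for C5. The ratio in the authors' deposited table was 2.16 downward. With Timp2 1433662_s_at, Spp1 had the lowest ratio of the members in that list, nearest to its limit of 2. The deposited signals gave a wider V7 to WT2 difference for Spp1, with a ratio of mean signals of 0.309. C5 was 1.75-fold as bright as V7, a log2 difference of 0.78 with an unadjusted 95% interval of 0.22 to 1.34. It was not called (limma adjusted p = 0.545), its upper bound exceeded 2-fold, and the value ran from 0.51 to 1.04 when each array was left out. C5 against WT2 was below the 2-fold limit, but without the second WT2 aliquot, the dimmer one, it passed at -1.11. The first start of Spp1, at chr5:104434861-104435160 on the plus strand (GRCm38.p6, RefSeq), held the RUNX letters on the minus strand, written here in capitals as their reverse complement, with the first base 128 bases before the start. It is shown because it held the same letters as the Hapln1 window, as did 16.8% of all promoter windows. A role of these letters was not tested.
Spp1: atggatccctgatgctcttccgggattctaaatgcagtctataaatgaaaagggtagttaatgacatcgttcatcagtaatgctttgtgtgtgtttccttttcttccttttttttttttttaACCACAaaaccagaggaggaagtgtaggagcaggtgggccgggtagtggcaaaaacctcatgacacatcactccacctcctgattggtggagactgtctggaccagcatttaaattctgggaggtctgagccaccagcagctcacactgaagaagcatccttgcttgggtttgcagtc

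**Figure D3:**
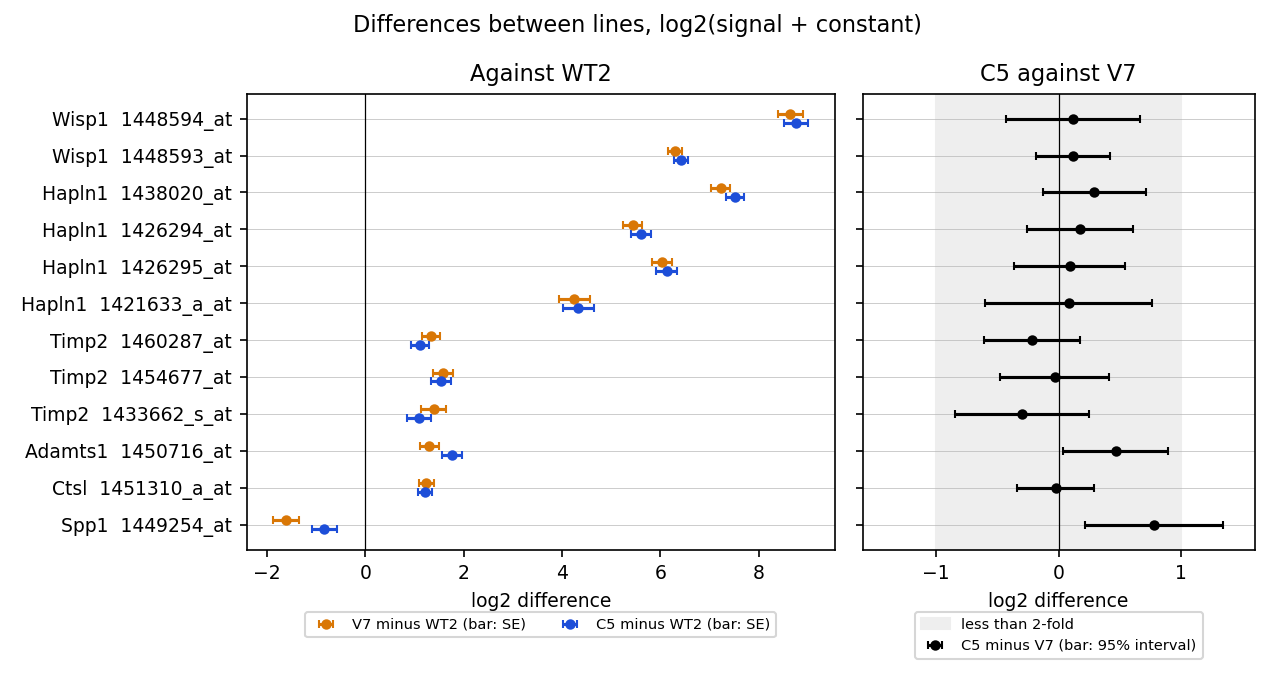
Differences in log2(signal + 5.03) for the 12 probe sets. The left panel shows V7 minus WT2 (orange) and C5 minus WT2 (blue) with standard errors, and the right panel C5 minus V7 with unadjusted 95% intervals on a grey band of less than 2-fold. The values against WT2 run from -1.61 for Spp1 to 8.76 for Wisp1. On the right the intervals of Adamts1 and Spp1 do not touch 0, and that of Spp1 leaves the band at 1.34.

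A probe set was called at a limma adjusted p below 0.05 and at least 2-fold, over 27022 probe sets tested. Between V7 and WT2, 11 of the 12 member probe sets were called higher and 1 lower in V7. Over all probe sets 12.5% were called, 5.29% higher and 7.23% lower. With quantile normalization, which moved the median of all probe sets from -0.13 to 0.01, the split over all probe sets went from 1430 higher and 1955 lower to 1705 and 1541, and that of the members was again 11 and 1. Because this comparison chose the members, nothing is read from their count. All 12 had V7 and WT2 arrays that did not overlap, against 62.3% of all probe sets. The median log2 difference was 2.91 over the members and -0.13 over all probe sets tested. Between C5 and WT2, which share the WT2 arrays with the former comparison, 11 were called higher, against 13.0% of all probe sets called, 5.58% higher and 7.46% lower. Spp1 was the member not called. The arrays of C5 and WT2 did not overlap in 12 of 12, against 59.6% of all probe sets, and the median was 3.04 over the members and -0.07 over all. The WT2 arrays also helped to choose the members, so nothing is read from these counts and medians either.

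Between C5 and V7, the comparison of the highly metastatic with the metastatic clone, 0 of 12 member probe sets were called by limma, against 0.0999% of all, or 27 probe sets. This comparison shares the V7 arrays with the one that chose the members. At an unadjusted p below 0.05 there were 2 members, Adamts1 and Spp1, beside 6.50% of all probe sets. The arrays of the lines did not overlap in 7 of 12 members and in 38.9% of all probe sets. The median log2 difference was 0.10 over the members and 0.02 over all. With 2 arrays per line the unadjusted 95% intervals reached at most 1.34 in size, for Spp1. The other 11 intervals stayed within 2-fold.

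Agreement between the aliquots of a line differed by member and line. The larger signal divided by the smaller was 1.12 to 7.81 in WT2 (median 1.51), 1.00 to 1.49 in V7 (median 1.06) and 1.03 to 1.33 in C5 (median 1.18). The medians over all probe sets tested were 1.26, 1.16 and 1.22. The largest WT2 ratios were 7.81 for Wisp1 1448594_at, 5.25 for Hapln1 1438020_at and 4.37 for Hapln1 1421633_a_at, all at signals below 10 units. Spp1 differed 1.49-fold between aliquots in WT2 and again 1.49-fold in V7, the widest V7 ratio among the members.

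Genes whose pattern over the 6 arrays was most like each member were sought among 1561 candidates by the root mean square difference of centred log2 values. This is a description in which all points share the same arrays. All candidates carried a name in the authors' lists of differing probe sets, so the rest of the array was not compared. For Wisp1 the closest candidates were casein kappa (0.299), the granule protease cathepsin G (0.299) and reproductive homeobox 5 (0.334). Casein kappa had mean signals of 13.4 in WT2, 6229 in V7 and 5251 in C5. For Hapln1 they were kelch-like 4 (0.301), Trat1, a T cell receptor adaptor (0.378), and reproductive homeobox 5 (0.416). For Timp2 they were survival motor neuron 1 (0.0539), a translocase of the inner mitochondrial membrane, Timm13 (0.0631), and mitochondrial ribosomal protein L12 (0.0679). Adamts1 lay closest to structural maintenance of chromosomes 6 (0.0575), chloride intracellular channel 4 (0.0857) and methionine aminopeptidase 2 (0.106). Ctsl lay closest to calsyntenin 3 (0.0475), BolA-like 2 (0.0533) and longevity assurance homolog 4 (0.0662). Spp1 lay closest to LUC7-like 2 (0.203), neuroblastoma ras oncogene (0.221) and an RNA pseudouridylate synthase domain protein (0.240).

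Related genes were taken from 8 lists of matrix, protease, inhibitor, receptor and Wnt genes. Of 252 genes in them, 29 carried a name in the authors' lists. Those lists had been selected on these arrays for a difference. The counts and calls of related genes are therefore no independent evidence of a difference. Between V7 and WT2, 11 of the 29 were called higher, 15 lower and 3 not called or not tested, with a median log2 difference of -1.33 against -0.13 over all probe sets. Between C5 and V7, 1 was called, and the median was -0.07. Between C5 and WT2, 9 were called higher and 14 lower.

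Among 20 matricellular genes, 4 were named, and 1 was called higher and 1 lower in V7 than in WT2. Thbs2, which encodes thrombospondin 2, had 111 ± 15.3 in WT2, 238 ± 11.6 in V7 and 111 ± 32.4 in C5, a V7 to WT2 difference of 1.08. It fell just below the 2-fold limit with the median signal as constant and to 0.94 without the second WT2 aliquot, and the other Thbs2 probe set, at 0.94, was not called. Lgals9, which encodes galectin 9, differed by -1.71, from 1677 ± 261 in WT2 to 507 ± 0.934 in V7 and 276 ± 75.9 in C5. Among 38 genes of hyaluronan and proteoglycans, 6 were named, 1 was called higher and 4 lower. Sdc4, a cell surface proteoglycan, had 4.80 ± 4.98 in WT2, 73.1 ± 5.91 in V7 and 39.5 ± 7.67 in C5. Hapln2, a link protein of the same family as Hapln1, went the other way, from 90.7 ± 41.1 in WT2 to 1.49 ± 0.00945 in V7 and 5.59 ± 2.79 in C5, a log2 difference of -3.80. Srgn, the proteoglycan of secretory granules, differed by -2.81 (1467 ± 133 in WT2 and 205 ± 10.5 in V7). Gpc1, a glypican, differed by -2.47. Its call was lost without the first WT2, second WT2 or first V7 aliquot, at log2 differences of -2.52, -2.43 and -1.95.

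Among 52 structural matrix genes and their modifiers, 5 were named, 4 called higher and 1 lower. Lamb2, a laminin chain of basement membranes, had 7.51 ± 7.70 in WT2, 547 ± 50.6 in V7 and 522 ± 42.1 in C5. P4ha2, a collagen prolyl hydroxylase subunit, had 39.9 ± 11.7, 139.9 ± 12.3 and 177 ± 6.60. Fbln2, which encodes fibulin 2, had 11.2 ± 8.86, 49.6 ± 9.18 and 14.1 ± 1.16. Its V7 to WT2 call was lost without the second WT2, first V7 or second V7 aliquot, at log2 differences of 1.27, 1.69 and 2.03. P3h2, a collagen prolyl 3-hydroxylase, was the only related gene called between C5 and V7, with signals of 44.0 ± 4.55 in WT2, 2.77 ± 1.15 in V7 and 194 ± 0.291 in C5 and a C5 to V7 difference of 4.68.

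Of 37 metalloprotease genes, Adam9, a membrane-bound metalloprotease, was the only 1 named, and it differed by 1.58 between V7 and WT2 (239 ± 52.1 in WT2, 715 ± 23.4 in V7, 721 ± 67.5 in C5). Of 24 genes in a list of cathepsins, serine proteases and related genes, 4 were named, 1 called higher and 3 lower. Ctsg, a serine protease of granules, had 6.0 ± 5.30 in WT2, 4049 ± 288 in V7 and 2905 ± 277 in C5. Cpa3, a carboxypeptidase of mast cell granules, was the reverse, with 1997 ± 371, 6.82 ± 6.22 and 6.52 ± 6.90. Lgmn, the lysosomal protease legumain that processes cathepsin L, differed by -2.20. Its call was lost without the first WT2 or the second V7 aliquot, at -1.96 and -1.57. Ctso, another cysteine cathepsin, differed by -1.12, and by -0.94 without the second WT2 aliquot. Ctsl was thus higher in V7 than in WT2 while the named cysteine protease Ctso was lower.

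Of 27 protease inhibitor genes, 5 were named, 2 called higher and 3 lower. Cst7, the cysteine protease inhibitor cystatin F, had 1616 ± 249 in WT2, 102 ± 5.33 in V7 and 177 ± 22.9 in C5. Reck, a membrane-anchored inhibitor of metalloproteases, had 124 ± 13.8, 34.2 ± 2.58 and 27.2 ± 2.27, so that it was lower where Timp2 was higher. Serpinb1a, an inhibitor of neutrophil serine proteases, differed by -1.54, and Spint2, an inhibitor of serine proteases read by a probe set that may be shared with other sequences, by 2.76. Of 10 osteopontin receptor genes, Cd44, which also binds hyaluronan, was the only 1 named. It had 165 ± 2.59 in WT2, 52.6 ± 7.23 in V7 and 73.3 ± 18.1 in C5, a V7 to WT2 difference of -1.57. The line means had the same order as those of Spp1, but C5 and V7 were not called different for either gene.

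Wisp1 is known as a Wnt target, so 45 genes of Wnt and beta-catenin signalling were looked up by name. Only 4 carried a name in the authors' lists, 1 called higher and 3 lower. The signals of the others were not read, so whether they differed was not determined. Dkk3, a secreted protein of the Dickkopf family, had 902 ± 169.6 in WT2, 3.12 ± 2.18 in V7 and 5.52 ± 3.62 in C5. Wif1, a secreted inhibitor that binds Wnt proteins, had 583 ± 33.3, 129 ± 9.13 and 143 ± 19.9. Fzd7, a Wnt receptor, had 75.3 ± 19.3, 12.7 ± 3.18 and 12.5 ± 1.78. Dvl1, which passes the signal on inside the cell, had 78.8 ± 1.57, 210.3 ± 17.7 and 213 ± 2.40.

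**Figure D4:**
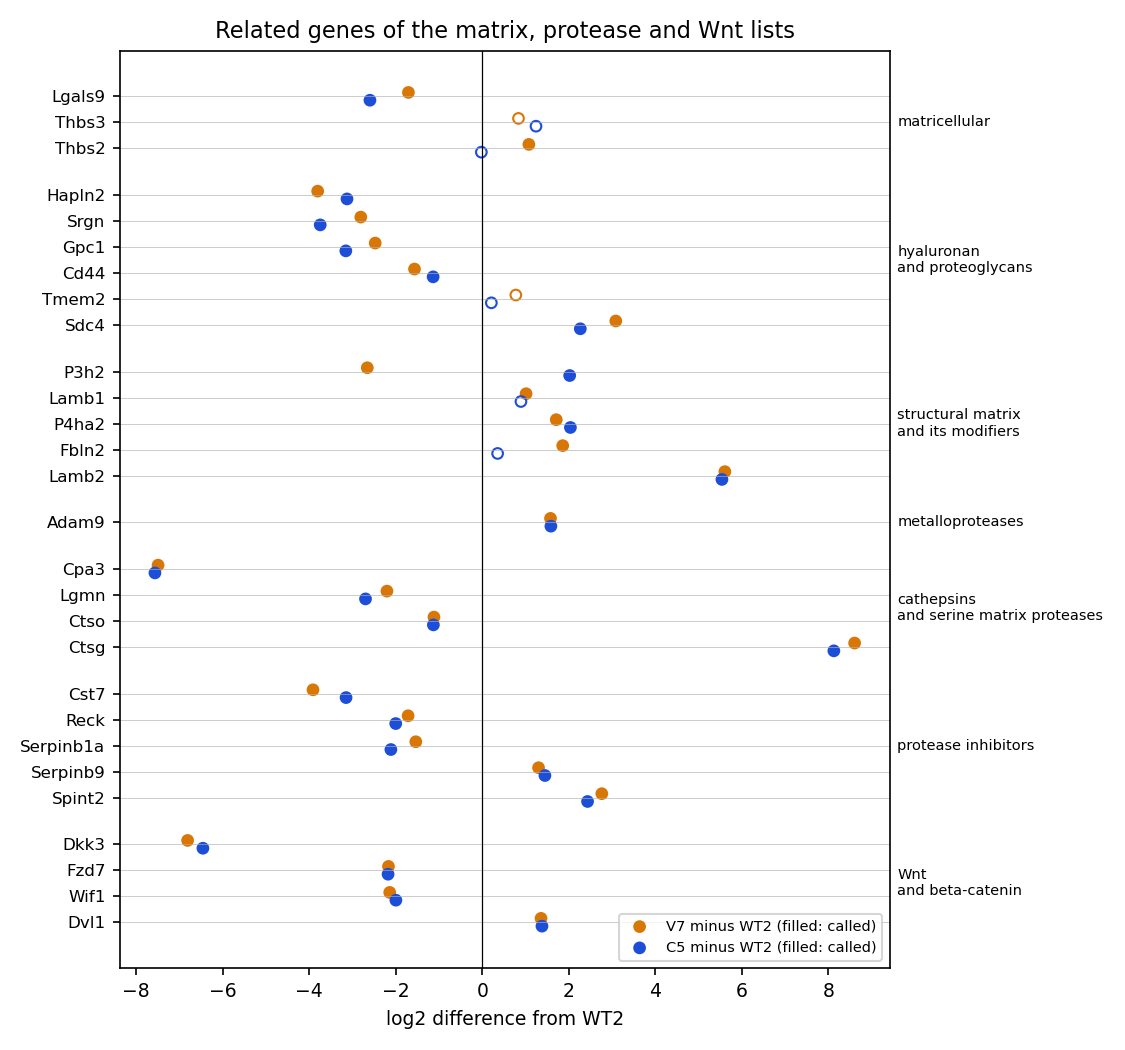
Log2 difference of V7 (orange) and C5 (blue) from WT2 for the 28 related genes that were tested, grouped by list, 1 row per gene. Filled points were called and open points were not. Cpa3 (-7.49 in V7 and -7.57 in C5) and Ctsg (8.61 and 8.13) are the extremes. Of the Wnt list, Dkk3, Wif1 and Fzd7 lie to the left of 0 in both lines and Dvl1 to the right.

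Markers of other cell types that can make matrix were read in the same arrays where they carried a name in the authors' lists. Of 12 fibroblast or stromal markers, 2 were named. Acta2, smooth muscle actin, had 5987 ± 563 in WT2, 49.6 ± 19.7 in V7 and 46.9 ± 7.93 in C5, with probes that may be shared with other actins, and Pdgfra, a receptor of mesenchymal cells, had 2.29 ± 0.582, 75.9 ± 14.0 and 47.7 ± 0.656. Their summed signal was 5591 to 6388 in WT2, 121 to 129.6 in V7 and 89.4 to 99.7 in C5, and Acta2 made up nearly all of it in WT2. Acta2, and with it the sum, moved against Wisp1 and Hapln1, and Pdgfra moved with them. Of 14 T cell markers, 6 were named, of which 5 were called lower in V7 than in WT2 and 1, Trat1, higher. Their summed signal, to which Trat1 added more than any other marker in V7 and C5, was 4075 to 4141 in WT2, 2545 to 2577 in V7 and 2238 to 2745 in C5. Of 5 endothelial markers, Pecam1 was named, with 34.7 ± 23.1, 73.8 ± 8.05 and 57.5 ± 12.9. None of 11 myeloid, 5 B cell and 4 epithelial markers carried a name, so their signals were not read. No named marker was at 0, but the smallest signal on every array was above 0 too. The part of other cell types in the members' differences was not tested.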

How the data were processed

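RNA of 6 aliquots was labelled with biotin and hybridised to Affymetrix arrays. The deposited values are linear signal intensities, 1 per probe set and array, made by the authors with MAS5 per the submitters' processing notes, with no version given. Every array had a 2% trimmed mean signal of 125. The authors' deposited lists hold, per the file headers, fold ratios, log2 group means and p-values. Their group means differ from those of the deposited signals, so their ratios and the differences computed here do not rest on the same values. The lists gave the gene names and served no test. The genome build of the array design is not given in the sources used here.

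Signals were taken as log2(signal + 5.03). Probe sets with a mean above the 40th percentile (11.7) were tested, 27022 of 45037 without array controls. All 12 member probe sets passed this limit, those of Hapln1 and Wisp1 1448594_at only through V7 and C5. In limma 3.58.1 (R 4.3.3) the 6 arrays were fitted with a mean for each line and a variance trend over signal, giving 3 residual and 8.47 prior degrees of freedom. Tests were two-sided and adjusted by Benjamini-Hochberg over all probe sets, and intervals at 95% were not adjusted. The fit was tried on simulated data with normal noise and known changes in C5 alone. That setting lacks the wide differences from WT2 in these data. Tables were made in Python 3.11.15 with pandas 2.3.3 and numpy 2.4.6, and figures with matplotlib 3.10.9.

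Members and gene lists were chosen with earlier results of these data known. For each list up to 4 called genes with the widest V7 to WT2 difference and up to 2 for C5 against V7 were named, and a gene was represented by its brightest probe set. Genes were matched to the lists by full deposited name. Whether the aliquots were separate cultures is not stated in the labels. The p-values then reflect aliquot spread alone, and this may be technical. Alternatives were other constants, quantile normalization, other filters, no variance trend, the aliquot number as a block, other call limits and leaving out each array.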

Additional observations from a re-analysis of the deposited data

How the results depend on the processing

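The members' calls were recomputed under every alternative. Between V7 and WT2 all 12 were called in all of them, with no test read from this. Between C5 and V7, 0 were called in all of them, the smallest adjusted p being 0.279, and 5 of 156 refits changed sign, all of them uncalled. Between C5 and WT2 the calls ranged from 10 to 12, through Timp2 (0.92 for 1433662_s_at with the median signal as constant) and Spp1. Over all probe sets, calls without a fold limit were 6648 for V7 against WT2 and 6945 for C5 against WT2. Leaving out each array gave 2704 to 3638 and 2869 to 3891. For C5 against V7 the 27 calls became 55 with the median signal as constant, 4 without the variance trend, 13 at an adjusted p below 0.01 and 5 to 68 without 1 array. The cause was not tested. Quantile normalization gave 1808 higher and 1746 lower for C5 against WT2, beside 1509 and 2015 without it.

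With the aliquot number as a replicate block, 15 probe sets were called between C5 and V7, and no member call changed. Deviations of same-numbered aliquots correlated at -0.0378 (WT2 and V7), 0.00321 (WT2 and C5) and 0.0396 (V7 and C5), so no shared pattern by aliquot number was seen. Whether same-numbered aliquots were handled together cannot be told from these values.

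The limits are those of 2 arrays and 1 clone per line, of unknown detection at signals near the constant, and of gene names that exist only where the authors listed a difference. The WT2 aliquots differed most for Wisp1 1448594_at (7.81-fold) and for Hapln1 1438020_at (5.25-fold).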

Other observations

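A further 15 matrix or protease genes with a name in the authors' lists stood outside the lists used above and were picked by name after those lists had been seen, so their values are given without a test. Of the 15, 7 were higher and 8 lower in V7 than in WT2, and not all of them are named here. The 3 minor collagens among the 15 had lower mean signals in V7 and C5 than in WT2. Col16a1 had 213 ± 32.3 in WT2, 26.8 ± 4.67 in V7 and 5.08 ± 1.13 in C5, Col22a1 had 132 ± 3.37, 33.7 ± 14.2 and 59.9 ± 9.62, and Col23a1 had 47.8 ± 11.8, 10.4 ± 1.88 and 16.9 ± 2.92. Hs3st3b1, an enzyme that adds sulfate to heparan sulfate chains, had 115 ± 6.46 in WT2, 1.91 ± 0.858 in V7 and 1.20 ± 0.0168 in C5. Klk8, a serine protease of the kallikrein family, had 171 ± 44.0, 1.41 ± 0.000707 and 4.14 ± 3.92.

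Others had higher mean signals in V7 and C5 than in WT2, the direction seen for Wisp1 and Hapln1. Edil3, an integrin-binding secreted protein, had 3.56 ± 2.73 in WT2, 64.0 ± 1.17 in V7 and 73.6 ± 4.56 in C5. Spink4, a Kazal-type protease inhibitor, had 12.3 ± 11.5, 146 ± 21.9 and 89.1 ± 5.87. Impg1, a hyaluronan-binding proteoglycan known from the retina, had 7.40 ± 8.28, 108 ± 12.7 and 41.9 ± 8.02.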
